A study of Rattus norvegicus with 12 samples.

Results

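Protein tyrosine phosphatases remove the phosphate that tyrosine kinases place on proteins, and so limit, or in some cases start, signalling by growth factors, insulin, cytokines and adhesion molecules. The classical enzymes fall into a receptor type (gene symbols starting with Ptpr), which spans the membrane and often carries an adhesion ectodomain, and a non-receptor type (Ptpn), which lies inside the cell and is directed to its substrates by other domains. In the brain, receptor types of the LAR group organise synapses, and non-receptor types such as STEP act on kinases and receptors of the postsynaptic side. The genes described here are those whose symbol starts with Ptpn or Ptpr, taken from probe sets annotated with exactly 1 gene symbol. They number 36 of 14217 measured genes, 15 with a Ptpn symbol, called non-receptor here, and 21 with a Ptpr symbol, called receptor, and were read by 64 of 31042 probe sets. The 21 include Ptprcap, which codes for a partner of a receptor and is no phosphatase, and Ptprdl, a computed model gene that is not shown to code for one. For a gene with several probe sets the one with the highest mean intensity over the 12 arrays, called the brightest, stands for the gene.

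The animals were male Long Evans rats, an outbred laboratory strain with no allele or agent named in the labels, 6 weeks old and kept singly. The exposed group was 6 rats that spent 3 hours in an environment new to them, furnished with objects that differed in shape and colour, and the control group was 6 rats left in a standard laboratory cage. Forebrain RNA of each rat was hybridised to 1 Affymetrix array. Values are intensities in linear units and changes are exposed minus control on the log2 scale with the standard error (SE) of the limma fit. A gene passed when its p-value, adjusted by Benjamini-Hochberg over all probe sets, was under 0.05. Per the labels the study looked for genes that rise with the exposure.

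Array medians ran from 235 to 245 intensity units. None of the 10 neuron markers, the 9 measured striatum markers and the 9 astrocyte markers was at the lower limit set for intensities (53.8) on all arrays. Control animal 4 stood apart, with a summed intensity of 3127 over 6 olfactory bulb and neuroblast markers, against 1358 to 1542 in the exposed animals and 1307 to 1493 in the other controls. Without it the log2 change was 0.33 for Ptpn12 (limma adjusted p = 0.00594), 0.36 for the brightest and 0.48 for the dimmer Ptpn1 probe set (0.00800 and 6.75e-05), -0.53 for Ptprdl (0.00143) and 0.08 for Ptpn11, which then missed the threshold (0.0645). The tissue is a mixture, so fewer cells of a type and less RNA per cell cannot be told apart.

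In exposed animals 3 of the 15 non-receptor genes rose and 0 fell, while of the 21 receptor genes 0 rose and 1 fell. Ptpn12, which codes for PTP-PEST, and Ptpn1, which codes for PTP1B, each rose by 1.25-fold at the brightest probe set, while their dimmer probe sets differed by 1.14-fold (Ptpn12, which did not pass) and 1.42-fold (Ptpn1, which passed). Ptpn11, which codes for SHP2, rose by 1.06-fold at the brightest probe set, while its dimmer probe set was 1.06-fold lower and did not pass. The gene that fell was Ptprdl, 1.41-fold lower, the model gene that RefSeq places across the start of the receptor gene Ptprd on the opposite strand. Of the other 20 genes with a Ptpr symbol, 0 passed. Over all 14217 genes, 2.62% passed as higher in exposed animals and 0.844% as lower, 3.46% in all. At an unadjusted p under 0.05 in limma, 5 non-receptor genes were higher and 0 lower, and 1 receptor gene was higher and 2 lower. That is 8 of 36, against 15.9% of all genes (8.77% higher and 7.1% lower). At the brightest probe set, Ptpn12 was the 1 gene of the 36 with every exposed animal above every control animal, which held for 2.51% of all genes. Ptprdl was the 1 with every exposed animal below, which held for 0.9% of all genes (3.41% for both directions). The dimmer Ptpn1 probe set also had every exposed animal above every control. The median log2 change was 0.02 over the non-receptor genes, -0.02 over the receptor genes and 0.00 over all genes.

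**Figure D1:**
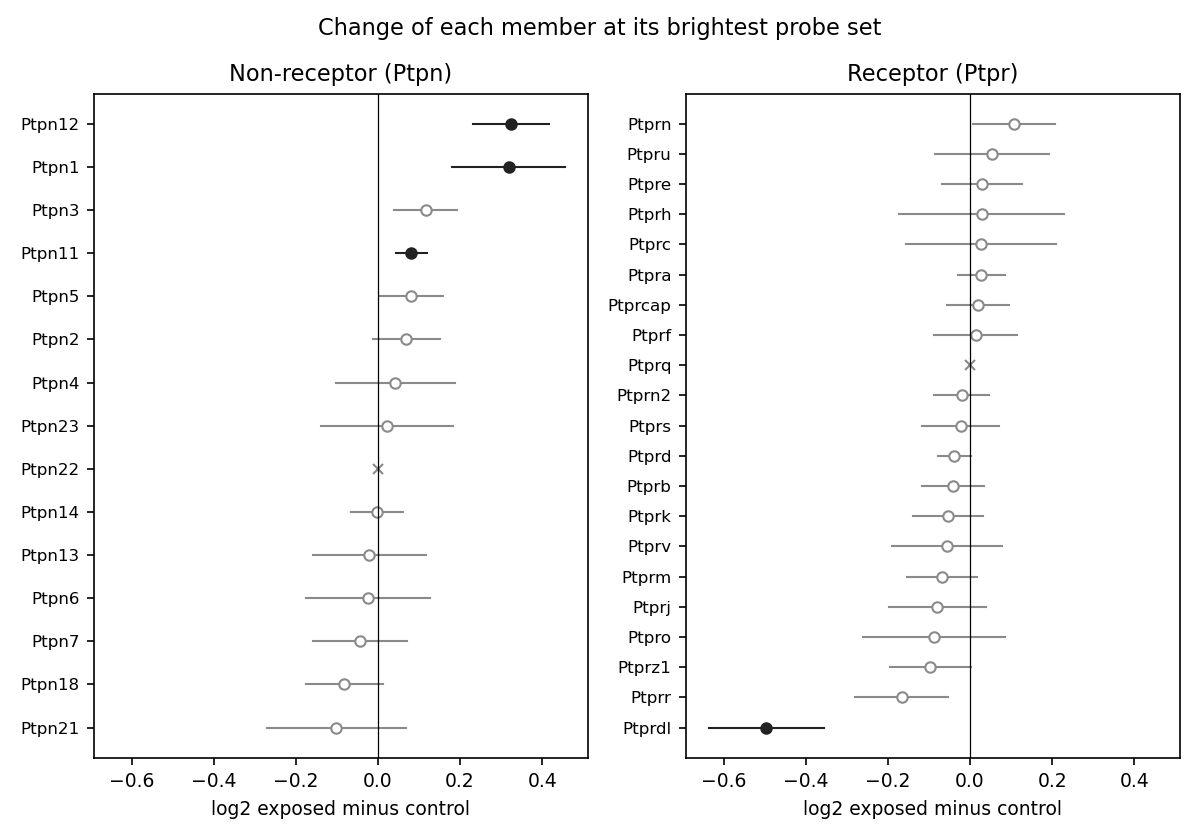
Log2 change, exposed minus control, of the 15 non-receptor genes (left) and the 21 receptor genes (right) at the brightest probe set, with 95% intervals of the limma fit as lines. Filled points passed at an adjusted p under 0.05, open points did not, and crosses mark Ptpn22 and Ptprq, which were at the lower limit on all 12 arrays. Most points lie within 0.2 of 0, with Ptpn12 and Ptpn1 above this range and Ptprdl below it.

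The sequence before the starts of the genes that passed is shown first, because Ptprdl and Ptprd differ there in position, strand and base composition. Each line gives the 250 bases before the start in RefSeq (GRCr8), read 5′ to 3′ on the strand of the gene. Ptpn1 is at chr3:177057483-177057732 (plus strand), Ptpn12 at chr4:14913024-14913273 (plus), Ptpn11 at chr12:41025829-41026078 (plus) and Ptprdl at chr5:97414366-97414615 (plus). Ptprd, which did not pass, is at chr5:97415499-97415748 (minus) and is shown beside Ptprdl because the starts of these genes overlap on opposite strands. Capitals mark a match to a site of activity-regulated factors, searched on both strands. These sites are the Egr site spelled GCGTGGGCG or GCGGGGGCG and the AP-1 site TGANTCA. The others are the cyclic AMP response element TGACGTCA and the CArG box of serum response factor.
Ptpn1: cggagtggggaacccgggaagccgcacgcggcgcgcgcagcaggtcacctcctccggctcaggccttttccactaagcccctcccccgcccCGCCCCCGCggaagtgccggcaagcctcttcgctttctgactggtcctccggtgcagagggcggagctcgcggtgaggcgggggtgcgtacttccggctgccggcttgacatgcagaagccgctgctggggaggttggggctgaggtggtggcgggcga
Ptpn12: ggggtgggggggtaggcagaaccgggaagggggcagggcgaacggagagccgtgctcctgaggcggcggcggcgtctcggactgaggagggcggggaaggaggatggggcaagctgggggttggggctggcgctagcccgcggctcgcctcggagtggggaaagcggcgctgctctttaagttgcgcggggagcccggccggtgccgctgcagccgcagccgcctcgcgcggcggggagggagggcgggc
Ptpn11: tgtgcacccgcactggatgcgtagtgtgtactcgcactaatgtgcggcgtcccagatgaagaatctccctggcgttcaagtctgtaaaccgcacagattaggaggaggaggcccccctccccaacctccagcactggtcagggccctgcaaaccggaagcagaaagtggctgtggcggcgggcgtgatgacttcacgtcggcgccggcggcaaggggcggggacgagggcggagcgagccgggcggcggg
Ptprdl: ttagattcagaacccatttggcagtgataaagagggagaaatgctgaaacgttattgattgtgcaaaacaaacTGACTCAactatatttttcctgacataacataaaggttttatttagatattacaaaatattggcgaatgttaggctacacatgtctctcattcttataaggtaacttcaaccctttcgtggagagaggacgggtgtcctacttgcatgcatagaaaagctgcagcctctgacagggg
Ptprd: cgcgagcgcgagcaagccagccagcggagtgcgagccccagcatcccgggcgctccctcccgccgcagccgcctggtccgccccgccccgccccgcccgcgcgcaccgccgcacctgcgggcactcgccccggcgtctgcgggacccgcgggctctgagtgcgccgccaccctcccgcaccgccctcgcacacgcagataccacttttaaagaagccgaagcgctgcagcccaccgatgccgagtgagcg

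The Ptpn1 window holds 1 Egr site at positions -159 to -151 from the start, and the Ptprdl window 1 AP-1 site at -177 to -171. The windows of Ptpn12, Ptpn11 and Ptprd hold none of the sites searched. The spelling found at Ptpn1 occurs in 2.45% of the 33469 RefSeq windows of this length and the AP-1 site in 6.34%. Of the 36 genes 29 have such a window in the table, and Ptprd has a second one, which makes 30. The other matches among these 30 were the same Egr spelling at Ptpn2 and Ptpre and the cyclic AMP response element at Ptprs and Ptpru, against 1.59% of all windows for that element. The spelling GCGTGGGCG and the CArG box were found in 0 of the 30, against 0.478% and 1.5% of all windows. None of Ptpn2, Ptpre, Ptprs and Ptpru passed between the groups. The Ptprdl window is 38.8% G and C, below the median of 51.2% over all windows, while those of Ptpn1, Ptpn12, Ptpn11 and Ptprd lie between 65.6% and 76.4%.

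Ptpn12 codes for PTP-PEST, an enzyme of the cytosol that acts on proteins of cell adhesions such as p130Cas. Its brightest probe set ranged from 1723 to 1863 in exposed animals with a median of 1804, against 1290 to 1561 in control animals with a median of 1463. The groups did not overlap. The means were 1805 ± 48.3 in exposed and 1444 ± 97.7 in control animals (SD, n = 6 each), a log2 change of 0.32 ± 0.04 (SE, limma adjusted p = 0.00191). The change was 0.29 among the animals numbered 1 to 3 in the labels and 0.36 among those numbered 4 to 6. A dimmer probe set of Ptpn12 ranged from 253 to 345 in exposed and from 213 to 293 in control animals, so its groups overlapped. Its change of 0.19 ± 0.09 did not pass (limma adjusted p = 0.402).

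Ptpn1 codes for PTP1B, an enzyme anchored in the endoplasmic reticulum that dephosphorylates the insulin receptor and the kinase JAK2, which signals for leptin. The brightest of its 2 probe sets, whose name marks probes that can match several transcripts, ranged from 677 to 849 in exposed animals (median 804) and from 586 to 726 in control animals (median 622). Here 5 of 6 exposed animals lay above every control, and exposed animal 6 lay below control animal 4, the highest of the controls. The log2 change was 0.32 ± 0.06 (SE, limma adjusted p = 0.0219), being 0.43 among animals 1 to 3 and 0.21 among animals 4 to 6. The dimmer probe set separated the groups fully, with 417 to 461 in exposed animals (median 442) against 277 to 330 in control animals (median 311). Its log2 change was 0.51 ± 0.04 (1.42-fold, limma adjusted p = 0.000104), being 0.53 among animals 1 to 3 and 0.49 among animals 4 to 6. The difference between these probe sets, 0.19 ± 0.08, did not pass when tested over all 6609 pairs of a dimmer and the brightest probe set of a gene (adjusted p = 0.435). The call of the dimmer probe set was kept in all 28 alternatives run, with a largest adjusted p of 0.00691. That of the brightest was lost without exposed animal 1 (adjusted p = 0.0567) or 2 (0.0509) and without control animal 1 (0.0514), 2 (0.0501), 3 (0.0554) or 5 (0.0522).

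Ptpn11 codes for SHP2, which binds phosphorylated receptors and docking proteins through SH2 domains and passes growth factor signals on to the Ras and ERK pathway. Its brightest probe set ranged from 3919 to 4101 in exposed animals (median 4000) and from 3692 to 3944 in control animals (median 3784). All but exposed animal 4 lay above every control animal. The log2 change was small, 0.08 ± 0.02 (SE, limma adjusted p = 0.0280), with a 95% interval from 0.04 to 0.12. A dimmer probe set had a log2 change of -0.09 ± 0.11 (limma adjusted p = 0.908), with an interval from -0.32 to 0.15. The call of Ptpn11 was lost without exposed animal 1 (adjusted p = 0.0563), 2 (0.0637), 5 (0.0538) or 6 (0.0542) and without control animal 1 (0.0607), 3 (0.0533), 4 (0.0645), 5 (0.0576) or 6 (0.0628). RNA quality, read as how much brighter the 3′ than the 5′ probe sets of Gapdh and beta-actin were on the log2 scale, was 0.45 ± 0.07 in exposed and 0.39 ± 0.05 in control animals (SD, n = 6 each). Its part in these results was not tested beyond a fit with it as a covariate. In that fit the limma adjusted p was 0.116 for Ptpn11 and 0.0730 for the brightest Ptpn1 probe set, and 1 of 15 non-receptor genes, Ptpn12, passed. The log2 changes in that fit were 0.07 for Ptpn11 and 0.32 for Ptpn1, against 0.08 and 0.32 without the covariate.

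**Figure D2:**
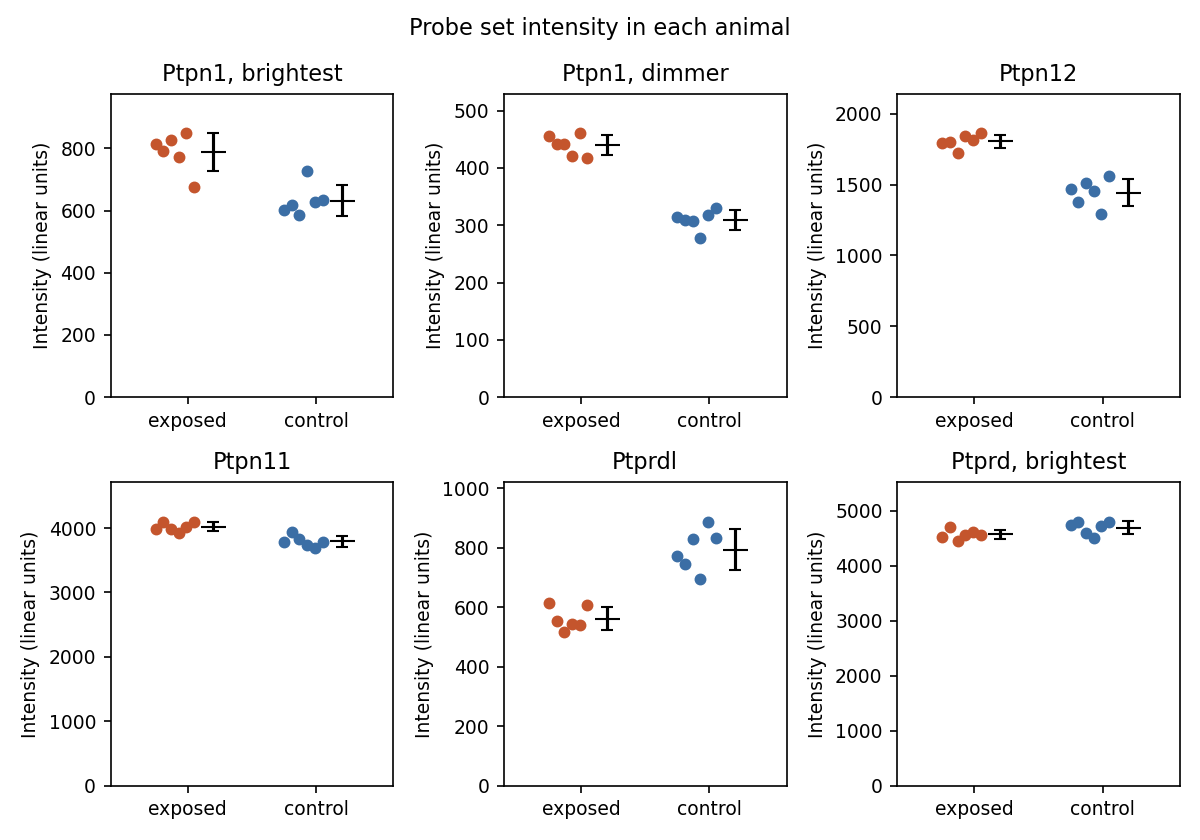
Intensity in linear units of 6 probe sets, with a point for each exposed (left) and control (right) animal and the mean with SD in black (n = 6 each). The groups do not overlap for the dimmer Ptpn1 probe set, Ptpn12 and Ptprdl, and overlap for the brightest Ptpn1 probe set, Ptpn11 and Ptprd.

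Ptprdl ranged from 516 to 614 in exposed animals (median 548) and from 696 to 888 in control animals (median 800). The groups did not overlap. The means were 562 ± 39.6 in exposed and 794 ± 69.4 in control animals (SD, n = 6 each), and the log2 change was -0.50 ± 0.06 (SE, limma adjusted p = 0.00187). Among animals 1 to 3 the change was -0.48 and among animals 4 to 6 it was -0.51. RefSeq lists Ptprdl with 1 transcript, a computed model, and no function is given in the sources used here. In GRCr8 it runs on the strand opposite to Ptprd and overlaps it by 883 bases at the start of both genes. Which strand the Ptprdl probe set reads was not tested, since probe sequences were not used here.

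Ptprd codes for a receptor of the LAR group that sits on the presynaptic side and binds postsynaptic adhesion proteins. Its brightest probe set ranged from 4444 to 4705 in exposed animals (median 4560) and from 4505 to 4799 in control animals (median 4729), with overlapping groups. The log2 change was -0.04 ± 0.02 (limma adjusted p = 0.432), and the 95% interval, from -0.08 to 0.00, did not reach the interval of Ptprdl, -0.64 to -0.36. The difference between these genes was not tested. The dimmer probe sets of Ptprd had changes of -0.04 ± 0.06 and -0.21 ± 0.21, and neither passed. Without Ptprdl, 0 of the other 20 receptor genes passed in limma at the brightest probe set, against 3.46% of all genes. At an unadjusted p under 0.05, 1 of them was higher and 1 lower, against 8.77% and 7.1% of all genes. Dimmer probe sets of Ptprm and Ptprs were also lower at that level and did not pass.

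Of the other LAR group receptors, Ptprs had a log2 change of -0.02 ± 0.04 and Ptprf of 0.01 ± 0.05 at the brightest probe set. The exposed and control animals overlapped in both. Ptprs was also read by 3 dimmer probe sets, of which 1 was at the lower limit on all arrays. The other two had changes of -0.11 ± 0.05 and -0.15 ± 0.07 (limma adjusted p = 0.371 and 0.363).

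Ptprr codes for a phosphatase that binds and inactivates MAP kinases, and had the largest change among the receptor genes that did not pass. It ranged from 516 to 639 in exposed animals (median 588) and from 612 to 709 in control animals (median 648), with 5 of 6 exposed animals below every control. The log2 change was -0.17 ± 0.05 (limma adjusted p = 0.148). Ptpn7, a related phosphatase of MAP kinases known mainly from blood cells, had a log2 change of -0.04 ± 0.05. Ptpn5 codes for STEP, the striatum-enriched phosphatase that acts on ERK, Fyn and subunits of glutamate receptors. It ranged from 3409 to 3752 in exposed animals (median 3647) and from 3128 to 3570 in control animals (median 3454), with 4 of 6 exposed animals above every control. Its log2 change was 0.08 ± 0.04 (limma adjusted p = 0.365), with an interval from 0.00 to 0.16. The 9 measured striatum markers had a median log2 change of 0.03 and 0 of them passed in limma, against 3.46% of all genes. At an unadjusted p under 0.05, 1 was higher and 2 lower, against 8.77% and 7.1% of all genes. The higher marker was Pde10a (log2 change 0.13 ± 0.05), and the lower ones were Adora2a (-0.17 ± 0.06) and Rgs9 (-0.12 ± 0.03). For Rgs9 every exposed animal lay below every control, which held for 0.9% of all genes. Of the 9 markers, 5 had a positive and 4 a negative change. The summed intensity of the 9 markers ran from 16696 to 18862 in exposed and from 16383 to 18149 in control animals.

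Ptprn and Ptprn2 code for proteins of dense-core vesicles, the granules that hold neuropeptides, and lack phosphatase activity towards most substrates. Ptprn ranged from 4551 to 5481 in exposed animals (median 5121) and from 4564 to 5135 in control animals (median 4695), and the groups overlapped. It had the largest positive change of a receptor gene, 0.11 ± 0.05 on the log2 scale, and did not pass (limma adjusted p = 0.328). Ptprn2 had a log2 change of -0.02 ± 0.03 with an interval from -0.09 to 0.05.

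The remaining non-receptor genes carry domains that place them in the cell. Ptpn3 and Ptpn4, with FERM and PDZ domains that bind the membrane skeleton and receptors, had log2 changes of 0.12 ± 0.03 and 0.04 ± 0.07. Ptpn3 ranged from 1040 to 1132 in exposed animals (median 1083) and from 936 to 1062 in control animals (median 1005), with 4 of 6 exposed animals above every control, and did not pass (limma adjusted p = 0.131). Its dimmer probe set had a similar change of 0.13 ± 0.07 (limma adjusted p = 0.437). The other FERM domain genes, Ptpn13, Ptpn14 and Ptpn21, had log2 changes of -0.02 ± 0.06, -0.003 ± 0.03 and -0.10 ± 0.08. Ptpn21 was read at low intensity, 128 to 166 in exposed animals (median 153) and 148 to 192 in control animals (median 156). Ptpn2, the closest relative of Ptpn1 and an inhibitor of JAK and STAT signalling, had a log2 change of 0.07 ± 0.04 (limma adjusted p = 0.499), with 4 of 6 exposed animals above every control. Ptpn18, a relative of Ptpn12 in the PEST group, had a log2 change of -0.08 ± 0.04, and Ptpn23, which sorts receptors in endosomes, of 0.02 ± 0.07.

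The remaining receptor genes mark several cell types. Ptprz1, which glia and their precursors express and which binds pleiotrophin, had a log2 change of -0.10 ± 0.05 at the brightest probe set and 0.03 ± 0.06 at the dimmer one, and neither passed. Ptprb, a receptor of endothelial cells, had a log2 change of -0.04 ± 0.03. Of the 10 measured endothelial and mural markers 1 fell, Slco1a4 (log2 change -0.29 ± 0.04, limma adjusted p = 0.00364), and 0 rose. Over all genes 0.844% passed as lower and 2.62% as higher. The median of the 10 was -0.06. All 10 were negative, as were 6792 of the 14217 genes, but some were near 0, such as Pecam1 (-0.0003) and Tek (-0.01). Over all genes 7.1% were lower and 8.77% higher at an unadjusted p under 0.05 in limma. Of the 10 markers 3 were lower at that level (Slco1a4 and the mural genes Pdgfrb and Rgs5) and 0 higher. Their summed intensity ran from 7632 to 8324 in exposed and from 8204 to 8992 in control animals, and their part in the Ptprb value was not tested. The homophilic adhesion receptors Ptprk, Ptprm and Ptpru had log2 changes of -0.05 ± 0.04, -0.07 ± 0.04 and 0.05 ± 0.06. Ptpra and Ptpre, which activate Src family kinases, had 0.03 ± 0.03 and 0.03 ± 0.04, and Ptprj and Ptpro, with fibronectin-type ectodomains, -0.08 ± 0.05 and -0.09 ± 0.08.

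Genes of immune cells were dim. Ptprc, the leukocyte antigen CD45, ranged from 80.2 to 115 in exposed and from 80.5 to 101 in control animals, and its partner Ptprcap, which is no phosphatase, from 107 to 122 in exposed and from 109 to 118 in control animals. Ptpn6, which codes for SHP1 of blood cells, had a log2 change of -0.02 ± 0.07. Ptpn22, a phosphatase of lymphocytes, was at the lower limit on all arrays, as was Ptprq, a receptor of the inner ear and kidney. Ptprh and Ptprv, which are also dim here (91.2 to 126 and 97.9 to 118 in exposed animals, 98.5 to 123 and 96.9 to 123 in control animals), had log2 changes of 0.03 ± 0.09 and -0.06 ± 0.06. Summed microglia markers (11 genes) ran from 5798 to 6476 in exposed and from 5760 to 6476 in control animals. In limma 0 of the 11 passed, against 3.46% of all genes. At an unadjusted p under 0.05, 1 was higher (Tmem119, log2 change 0.21 ± 0.07) and 0 lower, against 8.77% and 7.1% of all genes. Of the 11 markers, 4 had a positive and 7 a negative change. Among the negative ones, Aif1 (-0.14 ± 0.06) had 5 of 6 exposed animals below every control.

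Among the genes that did not pass, the precision set a limit on what could have been missed. At the brightest probe set, the 95% interval lay within 1.2-fold in either direction for 10 of the 11 non-receptor genes above the lower limit. The same held for 18 of the 19 receptor genes above it. The exceptions were Ptpn21, from -0.27 to 0.07 on the log2 scale, and Ptprr, from -0.28 to -0.05. The half-width of the interval had a median of 0.12 for the non-receptor and 0.10 for the receptor genes. These intervals hold for each gene by itself and are not adjusted for the number of genes. Dimmer probe sets were not counted here. Some had wider intervals, such as that of Ptprj, from -1.05 to 0.45 on the log2 scale.

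Several probe sets were available for 19 of the 36 genes, which gave 28 pairs of a dimmer and the brightest probe set. In limma 0 of the 28 pairs moved apart, against 0.908% of the 6609 pairs of all genes, and 1 pair, that of Ptpn1, reached an unadjusted p under 0.05, against 9.53%. Over all 64 probe sets 4 passed as higher and 1 as lower, against 1.97% and 0.599% of all probe sets (2.56% in both directions). The dimmer probe sets included 6 that stayed at the lower limit on all arrays and hold no measured change. The pairs of those 6 reflect only the brightest probe set. That of Ptpn22 reflects neither, since its brightest probe set was also at the lower limit on all arrays. With 28 pairs, a count of 0 is near the share of all pairs. The widest errors were those of dimmer probe sets of Ptprj (-0.30 ± 0.34) and Ptpn4 (0.06 ± 0.29).

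**Figure D3:**
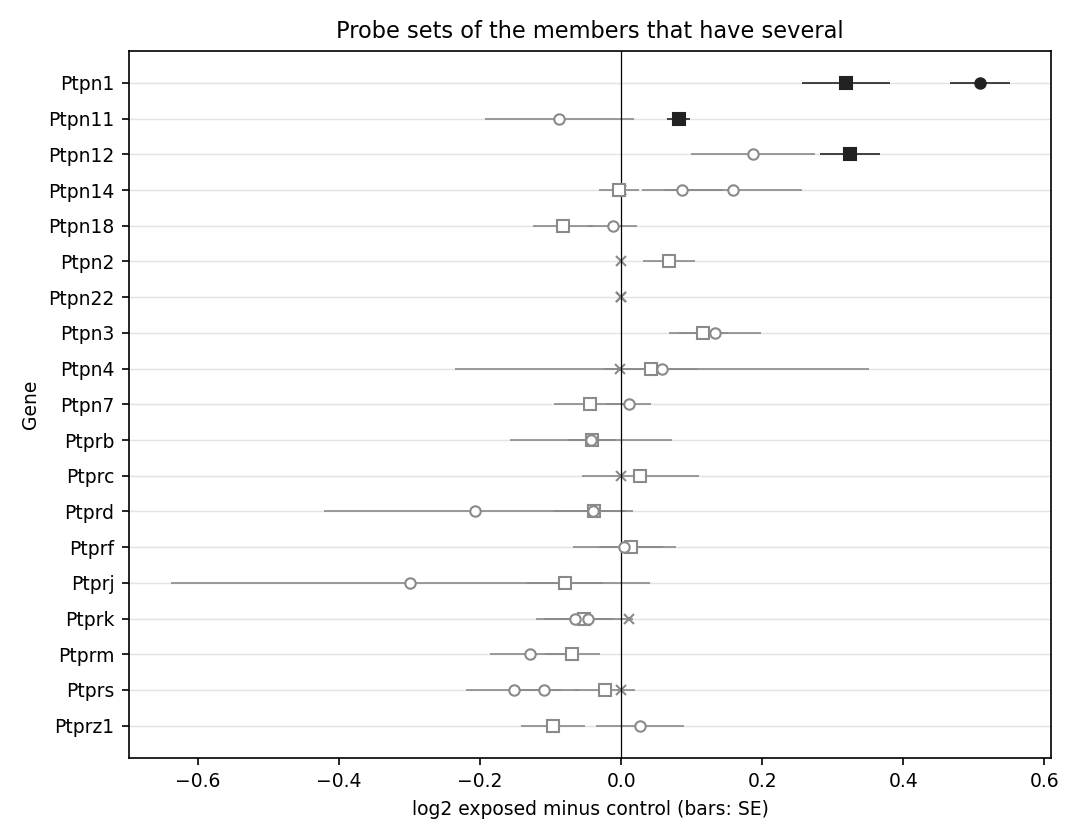
Log2 change, exposed minus control, with SE, of every probe set of the 19 genes that have several. Squares are the brightest probe set of a gene, circles the dimmer ones, filled symbols passed at an adjusted p under 0.05, and crosses were at the lower limit on at least 9 of the 12 arrays. Both Ptpn1 probe sets are filled, while the dimmer probe sets of Ptpn11 and Ptpn12 are open.

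Genes that act with these phosphatases, and other or related phosphatases, were followed in 3 lists. The lists were chosen with earlier results of these data known, so their counts are a description and no test. Among 20 measured substrates and docking partners 2 rose and 0 fell, against 2.62% and 0.844% of all genes, with a median log2 change of -0.004, against 0.00 over all genes. Irs2, a docking protein of the insulin receptor, ranged from 1208 to 1368 in exposed animals (median 1257) and from 643 to 705 in control animals (median 662). Its groups were fully apart and its log2 change was 0.94 ± 0.03 (1.92-fold, limma adjusted p = 1.93e-07). Jak2, the cytokine receptor kinase that PTP1B dephosphorylates, ranged from 394 to 455 in exposed animals (median 418) and from 329 to 372 in control animals (median 345), a log2 change of 0.27 ± 0.04 (limma adjusted p = 0.00500). Stat3, a transcription factor phosphorylated by JAK2, and Mapk14, the stress kinase p38, had log2 changes of 0.24 ± 0.07 and 0.09 ± 0.03, which did not pass (limma adjusted p = 0.116 and 0.169).

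Among 13 other tyrosine phosphatases and related phosphatases, 0 passed in limma. At an unadjusted p under 0.05, 3 were higher and 0 lower, against 8.77% and 7.1% of all genes, and the median log2 change was 0.03. The smallest p-values were those of Mtmr2, a lipid phosphatase of the myotubularin family (log2 change 0.21 ± 0.05, adjusted p = 0.0718), Ptpdc1 (0.26 ± 0.08, adjusted p = 0.122), the farnesylated phosphatase Ptp4a1 (0.05 ± 0.02, adjusted p = 0.326) and the mitochondrial Ptpmt1 (-0.07 ± 0.04, adjusted p = 0.480). Among 24 ligands and synaptic partners of the receptor types 0 passed in limma. At that unadjusted level 1 was higher and 1 lower, and the median was -0.02. Cntn3, an adhesion protein of the contactin family, differed by -0.15 ± 0.05 on the log2 scale (adjusted p = 0.192). Ppfia1, a liprin that binds LAR group receptors inside the cell, differed by 0.07 ± 0.03 (adjusted p = 0.333). The synaptic ligand Slitrk1 and the liprin relative Ppfibp1 had log2 changes of -0.14 ± 0.06 and 0.06 ± 0.03.

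**Figure D4:**
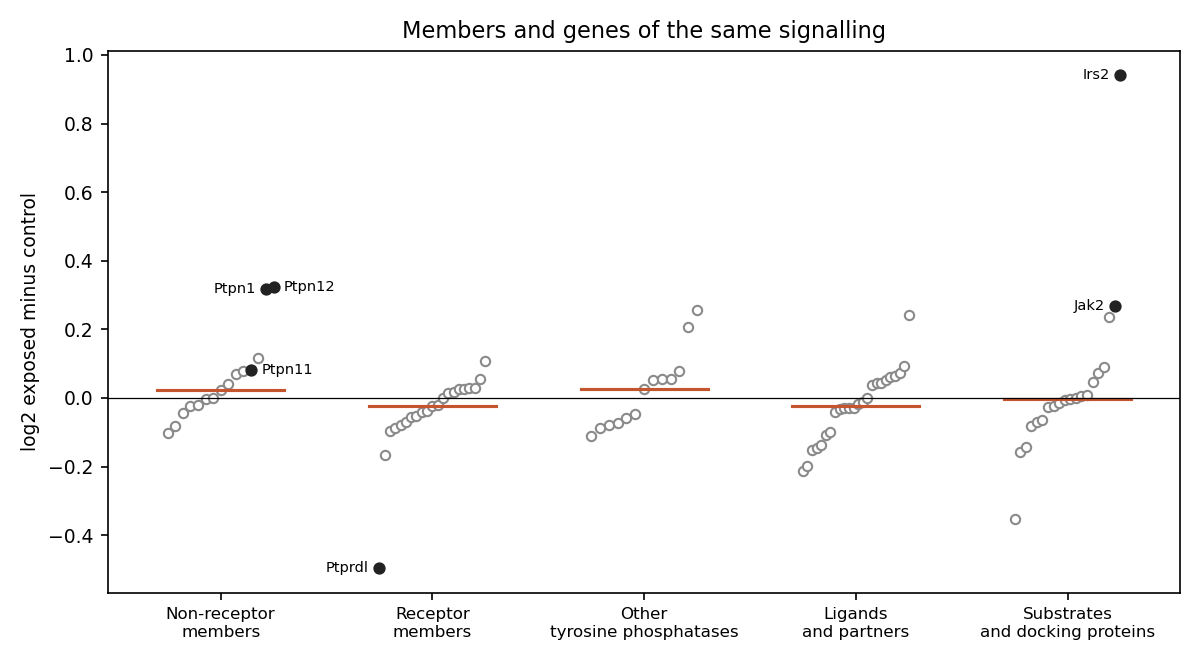
Log2 change, exposed minus control, of the 15 non-receptor and 21 receptor genes and of 3 lists of genes that act with them, with a point per gene and the median as a bar. Filled, named points passed at an adjusted p under 0.05, and the medians of all 5 groups lie within 0.03 of 0.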

How the data were processed

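Per the labels' protocols, total RNA was extracted with Trizol, cleaned on RNeasy columns and labelled with biotin by the Affymetrix procedure. The deposited table holds 1 linear intensity per probe set and array, while the authors' background correction, probe summary and normalization are, in the sources used here, not given. Across arrays the log2 medians lay within 0.06 and their upper quartiles within 0.07, so the intensities were used as deposited. They were raised to a floor at their 20th percentile (53.8), taken to log2 and fitted with limma 3.58.1 in R 4.3.3, with the group as the only term and eBayes with a trend. P-values were adjusted over 31042 probe sets, without 57 array controls. Precision is limited by having 6 arrays per group. The p-values weigh the difference between the groups against the spread between these animals and their arrays.

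Symbols came from the platform annotation, checked by Entrez ID against RefSeq (GRCr8), which changed 0 of 20826 probe set names. Of these, 68 had no match in RefSeq and kept the symbol of the platform annotation unchecked. Ptpn9, Ptprg and Ptprt have no probe set with 1 symbol in that annotation. Probe sets ending in _s_at or _a_at can read several transcripts or genes. Named genes are all 36 genes, with ranges for those that passed and the 2 of each type with the largest change that did not, and up to 4 genes per list with the smallest p. Ptpn5, Ptprd and the immune and endothelial genes were given in more detail after their values were seen. Members, lists and motifs were chosen with earlier results of these data known.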

Additional observations from a re-analysis of the deposited data

Results flagged for a closer look

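In 70 tests of a gene in 1 group of 6 animals, 5 had an animal whose distance to the nearest other one, divided by the range of the group, exceeded the 95% critical value of Dixon's test, and chance gives this in about 1 test in 20. Ptpra, a receptor that activates Src family kinases, was 947 in exposed animal 1, against 890 to 909 in the other exposed animals, and 825 in control animal 5, against 885 to 914 in the other controls. Ptprz1, a receptor of glia, was 2726 in control animal 5, against 2942 to 3077 in the other controls. Ptpro was 850 in control animal 4, against 651 to 718 in the other controls. That animal also stood apart on olfactory bulb and neuroblast markers (summed intensity 3127), and without it the log2 change of Ptpro was -0.03, against -0.09 with it. The part of those markers in the Ptpro value was not tested. Ptpn13 was 302 in control animal 2, against 346 to 370 in the other controls. None of these 4 genes passed between the groups, with all animals or without the animal named.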

How the results depend on the processing

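Of 28 alternatives (29 for the counts per type), none turned the direction of a gene that passed. Ptpn12, Ptprdl and the dimmer Ptpn1 probe set kept their calls in all 28, while the brightest Ptpn1 probe set kept its call in 19 of 27 and Ptpn11 in 15 of 28. The count of non-receptor genes that passed was 3 and became 1 with the RNA quality covariate, and 1 to 3 with any single animal left out. It was 1, Ptpn12 alone, without exposed animal 1 or 2 or control animal 1, 3 or 5. With the mean of all probe sets per gene it was 2, Ptpn1 and Ptpn12. The receptor count stayed at 1, Ptprdl, in all 29 alternatives. Of all probe sets 796 passed, against 435 with the animal number as a replicate block and 510 without control 4, high in olfactory markers, and exposed 3 and 5, whose median correlation with their own group was the lowest (0.995). That block took the brightest Ptpn1 probe set to a limma adjusted p of 0.120 with the log2 change still 0.32. The deviations of same-numbered animals correlated between -0.08 and 0.16. Those of differently numbered animals were not computed, so whether the number pairs the animals cannot be told. Ptpn11 also missed the threshold when the 40% dimmest probe sets (adjusted p = 0.0582) or those at the floor throughout (0.0542) were left out, and without the 3 arrays (0.158), with a log2 change of 0.08 in each. The cause was not tested. The median over the non-receptor genes ran from 0 to 0.06 and that over the receptor genes from -0.04 to -0.01. Signals near the floor limit what can be said of Ptpn22 and Ptprq.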
